A study of Rattus norvegicus with 6 samples.

Results

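The voltage-gated calcium channel subunits were examined in the medial prefrontal cortex of male Sprague-Dawley rats 90 min after an intraperitoneal injection of lysergic acid diethylamide (LSD). A probe set, the group of short oligonucleotides that reads a transcript on this Affymetrix rat array, was taken as a member when the platform annotation gave it exactly 1 of 10 channel gene symbols and no other gene. All 10 genes were represented, out of 4736 genes with a probe set of their own, by 21 of the 8740 probe sets tested. They were the pore-forming alpha1 genes Cacna1a, Cacna1b, Cacna1c, Cacna1d, Cacna1e and Cacna1g, with 16 probe sets, and the beta genes Cacnb1, Cacnb2, Cacnb3 and Cacnb4, with 5. The LSD rats received 1.0 mg/kg of the tartrate salt and were read on 3 arrays (LSD 1 to LSD 3), and the saline rats, injected at the same time, were read on 3 arrays (Saline 1 to Saline 3). All were outbred, weighed 250 to 275 g and carried no genetic modification that the labels name, and no age was given. The labels state that tissue of 4 animals was pooled per treatment, whereas the study's text makes each array a pool of a pair of rats. The spread between arrays may therefore be technical, and p-values measure that spread alone. The second line of every sample description names the other treatment than its title. Titles and treatment labels were followed here, and all signs would turn under the other reading.

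Voltage-gated calcium channels open when a neuron depolarises and let calcium in, which triggers transmitter release, shapes firing and starts calcium-dependent transcription. The alpha1 subunit forms the pore and sets the channel type. Cacna1c and Cacna1d encode L-type pores, which sit on cell bodies and dendrites and signal to the nucleus, Cacna1a and Cacna1b encode the P/Q-type and N-type pores of presynaptic terminals, Cacna1e an R-type pore, and Cacna1g a T-type pore that opens near the resting potential and supports burst firing. Beta subunits are cytoplasmic partners that bind the L-, P/Q-, N- and R-type pores, carry them to the membrane and tune their gating. LSD acts on the serotonin 2A receptor, which raises intracellular calcium through phospholipase C, and the comparison asks whether the channel transcripts differ soon after a dose.

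Values are log2 units of robust multi-array average (RMA) expression, so a difference of 1 is a doubling. Pairs of arrays correlated between 0.984 and 0.996 over all probe sets. Saline 1 stood apart: 78 of its probe sets deviated from the average of the remaining arrays by over 1 log2 unit, where the other arrays had 2 to 21 such probe sets. The 3' minus 5' difference of the beta-actin control probe sets, a sign of RNA integrity, was 0.69 ± 0.041 in LSD arrays and 0.79 ± 0.044 in saline arrays (SD, n = 3 each), with no overlap (two-sided exact permutation p = 0.1, the smallest that 3 against 3 allows). For Gapdh it was 0.49 ± 0.091 in LSD arrays and 0.52 ± 0.043 in saline arrays (exact permutation p = 0.7). For the hexokinase control it was 1.84 ± 0.17 in LSD arrays and 1.84 ± 0.070 in saline arrays (SD), and the groups overlapped. The excitatory neuron marker Nrgn averaged 11.05 log2 units on LSD arrays and 10.99 on saline arrays at its brighter probe set. Camk2a, also excitatory, averaged 5.48 on LSD and 5.67 on saline arrays at its brighter probe set, and 5.03 and 5.48 at the other. Of the inhibitory neuron markers, Slc32a1, the vesicular GABA transporter, averaged 7.74 on both at its brighter probe set. Gad1 averaged 7.90 on LSD and 8.09 on saline arrays, and Gad2 4.66 and 4.80. The vesicular glutamate transporter gene Slc17a7 was dim, at 4.67 on LSD and 4.83 on saline arrays, where the median of all probe sets was 5.43.

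No calcium channel probe set differed between LSD and saline rats at the threshold used, an adjusted limma p of 0.05 over all probe sets. Of the 21, 14 were nominally lower and 7 nominally higher after LSD, against 48.6% lower and 51.4% higher over all 8740 probe sets. Their median log2 change was -0.047, beside 0.0045 over all. Log2 changes ran from -0.26 for a Cacna1a probe set to 0.22 for a Cacnb2 probe set, and every adjusted p was 0.981 or higher. Over all probe sets 6 passed, which is 0.0686%, with 0.0114% higher and 0.0572% lower after LSD. An unadjusted limma p below 0.05 was found for 1 of the 21, which was Cacnb3, against 3.92% of all probe sets (2.4% higher and 1.52% lower after LSD). The 3 LSD values lay wholly above or wholly below the 3 saline values in 2 of the 21, 1 in each direction, against 10.4% of all probe sets (6.58% with LSD above and 3.79% with LSD below). Neither count stood out from the background. In bulk tissue, fewer cells of a type and less RNA per cell cannot be told apart.

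The limma intervals bounded the size of a difference only relative to the spread between these arrays. That spread may be technical, so the intervals need not cover variation between animals. The 95% limma interval lay within a 1.5-fold change in either direction for all 21 probe sets, as it did for 92.4% of all probe sets. This did not hold for all members with fewer arrays or other weights: 1 or 2 of the 21 passed the limit whenever 1 array was left out, and 1 did with array weights and with cyclic loess. Cacna1a AF051526_at went furthest, with an interval that allowed a level up to 1.60-fold lower after LSD without Saline 3, 1.57-fold without LSD 1 and 1.55-fold with array weights. With all 6 arrays, the widest reach downward was that of Cacna1a AF051526_at, whose interval allowed a level up to 1.49-fold lower after LSD, and the widest upward was that of Cacna1a rc_AI229031_s_at, up to 1.36-fold higher. Standard errors of the log2 changes ran from 0.078 to 0.18 among the members, with a median of 0.11, equal to the median over all probe sets at 2 digits. The estimate was no larger than its own standard error in 14 of the 21. Of the members 13 were above the median level of all probe sets and 8 below. Fold changes of dim probe sets are understated by RMA, so the intervals of those 8, which included all 5 of Cacna1d, hold for the RMA scale.

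**Figure D1:**
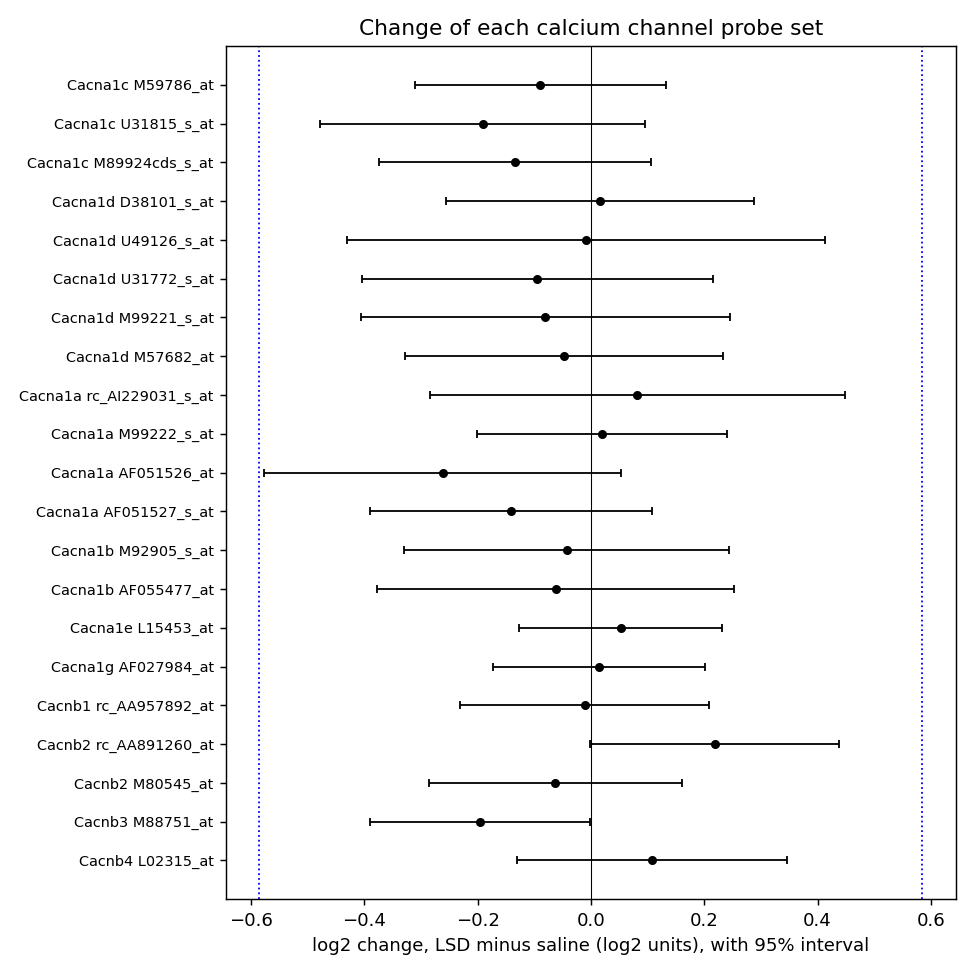
Log2 change, LSD minus saline (horizontal axis, log2 units), of the 21 calcium channel probe sets, with points for the limma estimate and bars for its 95% interval (n = 3 arrays per group). Dotted lines mark a 1.5-fold change in either direction, and all 21 intervals, fitted on all 6 arrays, lie between them.

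Among the beta subunits, Cacnb3 and Cacnb2 were the members of lowest p and leaned in opposite directions. Cacnb3, the partner of many N-type and L-type channels in brain, read 6.58, 6.67 and 6.76 log2 units on LSD 1, LSD 2 and LSD 3, against 6.87, 6.84 and 6.88 on Saline 1, Saline 2 and Saline 3 (M88751_at). Every LSD value lay below every saline value. The means were 6.67 ± 0.092 in LSD and 6.86 ± 0.021 in saline arrays (SD, n = 3), a log2 change of -0.20 ± 0.084 (SE), with an unadjusted limma p of 0.0483 and an adjusted p of 0.981. The saline arrays were close together and the LSD arrays spread more widely.

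Cacnb2 encodes a beta subunit prominent in heart that is also made in brain, and it was read by a pair of probe sets. The probe set rc_AA891260_at read 6.53, 6.64 and 6.67 log2 units on the LSD arrays, against 6.25, 6.46 and 6.48 on the saline arrays. Here the LSD values all lay above the saline values, and Saline 1 was the lowest. The log2 change was 0.22 ± 0.095 (SE, 95% interval -0.00081 to 0.44), with an adjusted limma p of 0.981, and without Saline 1 it was 0.15. The probe set M80545_at of the same gene read 5.38, 5.62 and 5.60 on the LSD arrays, against 5.63, 5.51 and 5.65 on the saline arrays, and the groups overlapped. Its log2 change of -0.063 ± 0.097 (SE) had the opposite sign.

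**Figure D2:**
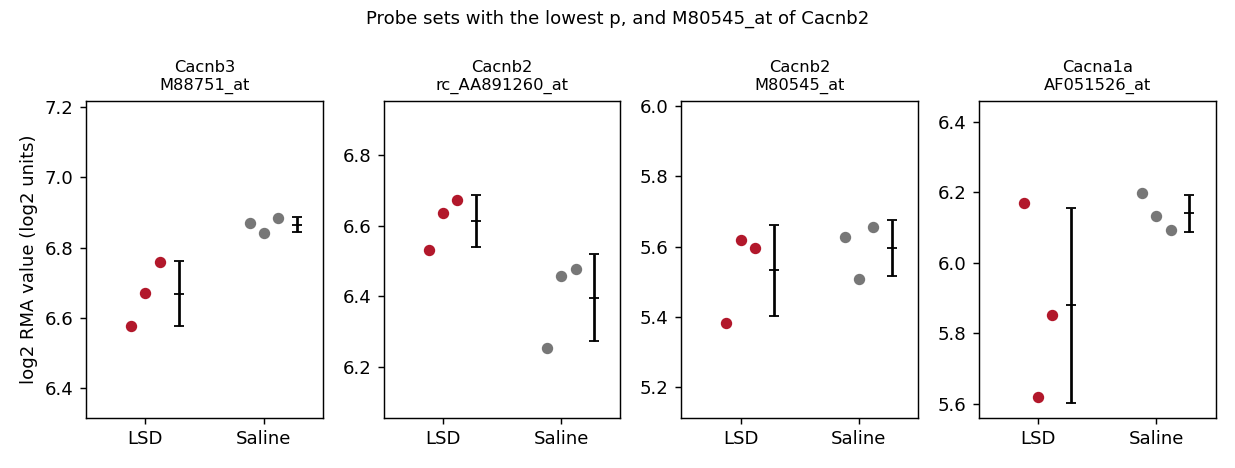
Log2 RMA values (vertical axis, log2 units, each panel spanning the same range) of Cacnb3 M88751_at, both Cacnb2 probe sets and Cacna1a AF051526_at, with 1 point per array, LSD in red on the left and saline in grey, and bars for mean and SD (n = 3). The groups separate in the first pair of panels, downward for Cacnb3 and upward for Cacnb2 rc_AA891260_at, and overlap in the others.

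The remaining beta genes showed little. Cacnb4, whose loss causes the epileptic lethargic phenotype in mice, was among the dimmest members and read 3.37, 3.46 and 3.34 log2 units on the LSD arrays, against 3.12, 3.28 and 3.44 on the saline arrays. The groups overlapped, with Saline 1 the lowest array. The log2 change was 0.11 ± 0.10 (SE), and without Saline 1 it was 0.025. Cacnb1, the beta subunit of skeletal muscle that neurons also express, read 6.76, 6.96 and 7.00 on the LSD arrays, against 6.94, 6.96 and 6.84 on the saline arrays. Its log2 change was -0.011 ± 0.095 (SE, 95% interval -0.23 to 0.21), and the groups overlapped throughout.

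L-type pores were read by 8 probe sets, of which 7 were nominally lower after LSD and 1 nominally higher, with a median log2 change of -0.085. None passed, and the groups overlapped in all 8. Without Saline 1 the split was 4 lower and 4 higher, and without LSD 1 it was 5 lower and 3 higher. The 3 probe sets of Cacna1c, the main L-type pore of cortical neurons, were all nominally lower. The brightest, M59786_at, read 5.95, 5.99 and 5.99 log2 units on the LSD arrays, against 5.92, 6.21 and 6.07 on the saline arrays, a log2 change of -0.089 ± 0.096 (SE). The probe set U31815_s_at read 4.74, 5.10 and 5.12 on the LSD arrays, against 5.29, 5.05 and 5.21 on the saline arrays, and M89924cds_s_at read 4.36, 4.55 and 4.61 on the LSD arrays, against 4.50, 4.71 and 4.71 on the saline arrays. In both of these LSD 1 was the lowest array. Their log2 changes were -0.19 ± 0.12 and -0.13 ± 0.10 (SE), and without LSD 1 they were -0.069 and -0.061. The change of M59786_at ran from -0.16 without Saline 1 to -0.017 without Saline 2. The sign of all 3 held when any 1 array was left out, but their size did not.

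Cacna1d, an L-type pore that opens at less depolarised potentials, was read by 5 dim probe sets with log2 changes between -0.095 and 0.016, all smaller than their standard errors. The brightest, D38101_s_at, read 4.50, 4.71 and 4.88 log2 units on the LSD arrays, against 4.69, 4.56 and 4.79 on the saline arrays. The probe set U49126_s_at read 4.56, 4.15 and 4.11 on the LSD arrays, against 4.66, 4.09 and 4.10 on the saline arrays. LSD 1 and Saline 1 were high together in it, and the other 4 arrays lay close to each other. The probe set U31772_s_at read 3.65, 3.74 and 3.85 on the LSD arrays, against 4.14, 3.72 and 3.67 on the saline arrays, where Saline 1 was again highest. On M99221_s_at the LSD arrays read 2.95, 3.16 and 3.25, and the saline arrays 2.91, 3.35 and 3.34, with array 1 of each group the lowest. On M57682_at the LSD arrays read 2.62, 2.88 and 2.75, and the saline arrays 2.99, 2.59 and 2.81. Saline 1 held the highest value in 3 of the 5 probe sets and the lowest in 1, so it stood out in most of them but not in 1 direction.

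The presynaptic pore Cacna1a had 4 probe sets, 2 nominally higher and 2 nominally lower. The probe set AF051526_at, which gave the most negative change of all members, read 6.17, 5.62 and 5.85 log2 units on the LSD arrays, against 6.20, 6.13 and 6.09 on the saline arrays. LSD 1 lay among the saline values while LSD 2 and LSD 3 lay below them. The log2 change was -0.26 ± 0.14 (SE), with an unadjusted limma p of 0.0919 and an adjusted p of 0.981, and it was -0.13 without LSD 2 and -0.41 without LSD 1. The probe set AF051527_s_at read 5.41, 5.72 and 5.71 on the LSD arrays, against 5.81, 5.77 and 5.68 on the saline arrays, a log2 change of -0.14 ± 0.11 that was -0.039 without LSD 1. The brightest probe set, rc_AI229031_s_at, read 6.79, 7.08 and 7.41 on the LSD arrays, against 7.13, 7.07 and 6.84 on the saline arrays, with the LSD arrays both above and below all saline arrays. Its log2 change was 0.082 ± 0.16 (SE). The probe set M99222_s_at read 6.12, 6.06 and 6.11 on the LSD arrays, against 5.93, 6.21 and 6.10 on the saline arrays, and its log2 change was 0.020 ± 0.096 (SE).

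Cacna1b, the N-type pore, had a pair of bright probe sets with small changes of the same sign. The brighter, M92905_s_at, read 7.38, 7.14 and 7.43 log2 units on the LSD arrays, against 7.57, 7.31 and 7.20 on the saline arrays, a log2 change of -0.043 ± 0.12 (SE). On AF055477_at the LSD arrays read 7.09, 6.93 and 7.01 and the saline arrays 6.76, 7.21 and 7.24, with Saline 1 below every LSD array. Its log2 change of -0.062 ± 0.14 (SE) was -0.22 without Saline 1 and 0.023 without Saline 3. A direction for this gene therefore depended on which array was kept.

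The R-type and T-type pores had the narrowest intervals. Cacna1e read 5.72, 5.67 and 5.63 log2 units on the LSD arrays, against 5.62, 5.60 and 5.64 on the saline arrays, a log2 change of 0.052 ± 0.078 (SE, 95% interval -0.13 to 0.23). Cacna1g read 7.38, 7.32 and 7.36 on the LSD arrays, against 7.27, 7.33 and 7.41 on the saline arrays, a log2 change of 0.015 ± 0.081 (SE, 95% interval -0.17 to 0.20). Each of these genes was read by 1 probe set. The 95% limits with all 6 arrays were 1.17-fold higher and 1.09-fold lower for Cacna1e on the RMA scale. For Cacna1g they were 1.15-fold higher and 1.13-fold lower. When the replicate number was added to the fit, the standard error rose to 0.10 for both genes, which widens these limits.

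The balance of nominally higher and lower probe sets depended on arrays LSD 1 and Saline 1. LSD 1 held the lowest of the 6 values in 9 of the 21 members, against 24.1% of all probe sets, and its median deviation from the members' means was -0.15 log2 units, against -0.015 over all probe sets. The other arrays had member medians between -0.013 and 0.051. Without LSD 1, 11 members were nominally higher and 10 nominally lower, with a median log2 change of 0.0025. Without Saline 1, which held the highest or the lowest value of 14 members, 10 were nominally higher and 11 nominally lower, with a median of -0.019. Leaving out any 1 of the other 4 arrays kept the lower count between 12 and 15. Over all probe sets, Saline 1 held the highest or lowest value in 47.4% and LSD 1 in 43.7%, more than any other array.

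**Figure D3:**
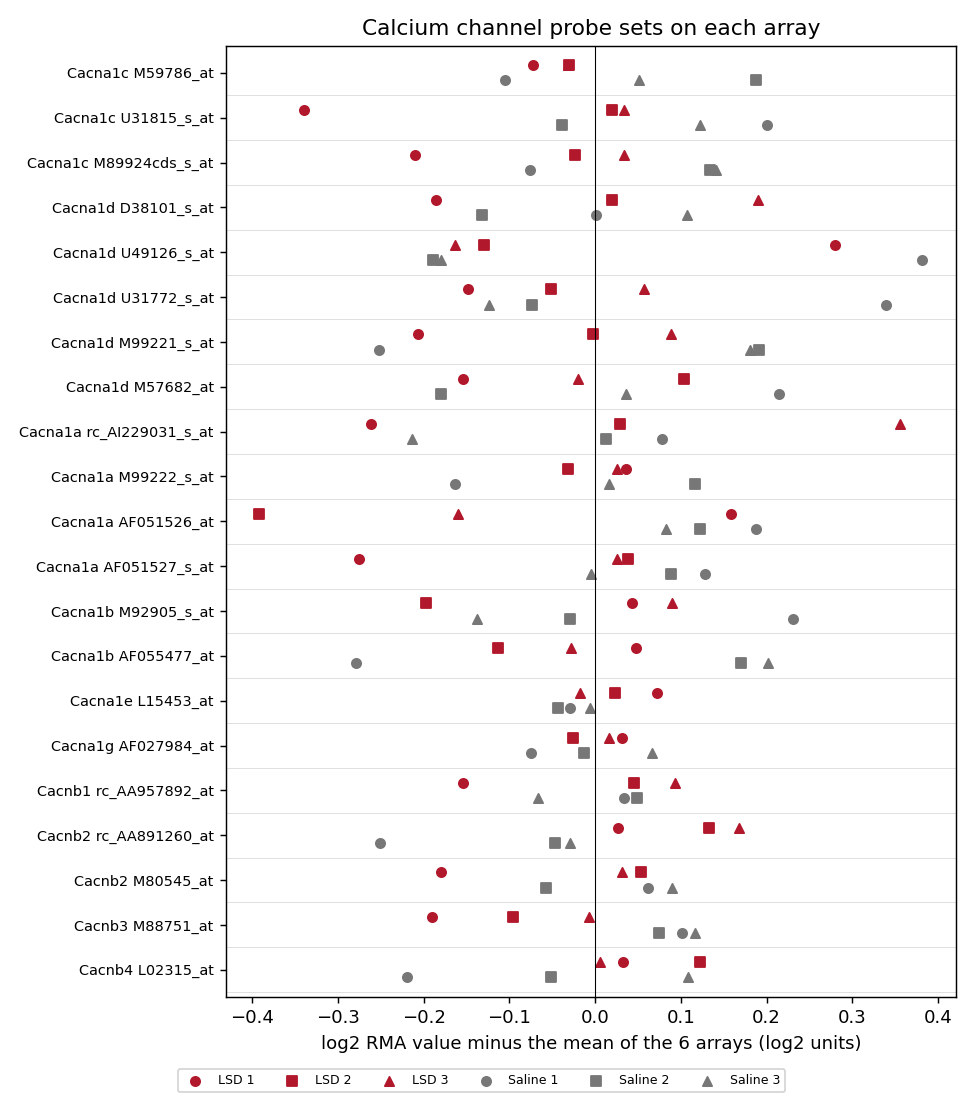
Log2 RMA value minus the mean of the 6 arrays (horizontal axis, log2 units) for each calcium channel probe set, with LSD arrays in red above saline arrays in grey and a symbol for each array number (LSD 2 and LSD 3 coincide for Cacna1c M59786_at). LSD 1 is the lowest array in 9 of the 21 rows, and the groups separate only for Cacnb3 and for Cacnb2 rc_AA891260_at.

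**Figure D4:**
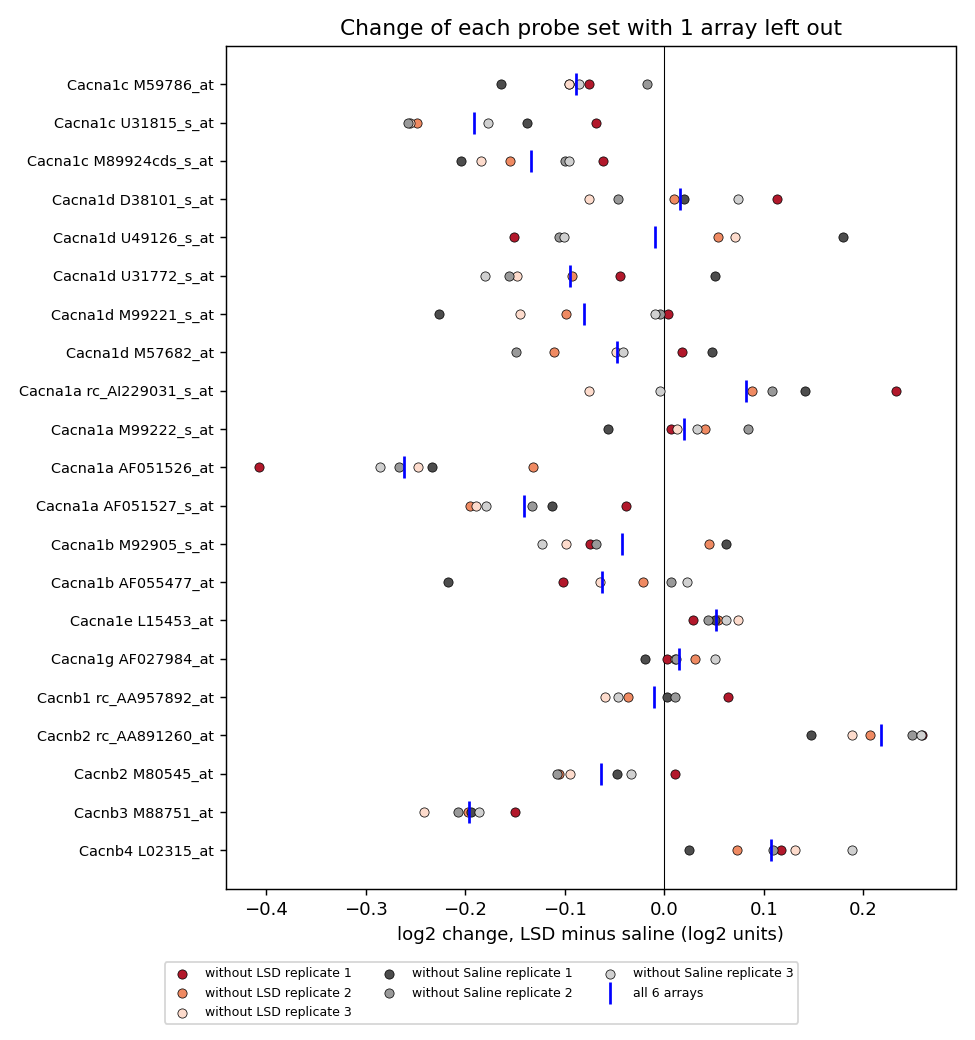
Log2 change, LSD minus saline (horizontal axis, log2 units), of each member with all 6 arrays (blue bar) and with each array left out in turn (circles). The circles stay on one side of 0 for all 3 Cacna1c probe sets, Cacna1e, Cacnb3, Cacnb4, Cacnb2 rc_AA891260_at, Cacna1a AF051526_at and Cacna1a AF051527_s_at, and fall on both sides in the other 12.

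Probe sets of the same gene read different stretches of its transcripts, and 10 of the 21 were of the type ending in _s_at, which can match several transcripts, so their signal cannot be assigned with certainty. For the 5 genes with several probe sets, the change of the brightest was compared with that of each other one in 11 pairs, chosen by a rule set after the values were seen. The sign was the same in 4 of 11. The difference between changes was largest for Cacna1a, 0.34 log2 units between rc_AI229031_s_at and AF051526_at (two-sided exact permutation p = 0.4, adjusted p = 0.943 over the 11 pairs). For Cacnb2 it was 0.28 log2 units, and the within-array difference between its probe sets did not overlap between groups (exact permutation p = 0.1, the smallest possible, adjusted p = 0.55). The same p held for 0.22 log2 units between rc_AI229031_s_at and AF051527_s_at of Cacna1a. No pair could pass in this design.

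Other channel subunits were sparsely represented. Of 16 further alpha1, alpha2-delta and gamma genes, 4 had probe sets, 5 in all, and 0 passed in either direction, with log2 changes from -0.21 to 0.082. Cacna2d1, the alpha2-delta subunit that raises surface levels of the pore and binds gabapentin, read 6.72, 6.62 and 6.51 log2 units on the LSD arrays, against 6.61, 6.65 and 6.56 on the saline arrays, and its log2 change was 0.011 ± 0.088 (SE). Cacna1h, a second T-type pore, differed by 0.0049 ± 0.15 log2 units. The muscle subunits gave the lowest p in each direction, 0.082 ± 0.11 for Cacna1s (L04684_at) and -0.21 ± 0.12 for Cacng1 (SE), and their groups overlapped. The other probe set of Cacna1s, U31816_s_at, had the opposite sign, at -0.18 ± 0.17 (SE), and its groups overlapped too.

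Genes that act with the channels were likewise without calls, where 0.0686% of all probe sets passed. Of 12 probe sets of channel regulators, which included calmodulin and neuronal calcium sensors, 0 passed, with a median log2 change of 0.0093. All LSD values lay above all saline values in 3 and below in 1, against 6.58% and 3.79% of all probe sets. None reached an unadjusted limma p below 0.05, against 3.92% of all probe sets. The lowest p values belonged to the calcium sensor genes Vsnl1 (0.19 ± 0.093) and Cabp1 (-0.19 ± 0.085, SE). Of 14 probe sets of release machinery, 0 passed, with a median of 0.0074. All LSD values lay above all saline values in 4 and below in 0, and 2 reached an unadjusted limma p below 0.05. The vesicle calcium sensor gene Syt1 differed by 0.33 ± 0.089 log2 units, with an adjusted limma p of 0.874 and no overlap, and the syntaxin gene Stx1a, whose product binds N-type channels, by -0.18 ± 0.094. Of 33 probe sets for release from and removal of calcium into stores or out of the cell, 0 passed, with a median of -0.0017. All LSD values lay above all saline values in 3 and below in 1, and 1 reached an unadjusted limma p below 0.05. The lowest p values belonged to U38653_s_at of the IP3 receptor gene Itpr1, at 0.31 ± 0.10, and to 1 probe set of the plasma membrane pump gene Atp2b2, at -0.20 ± 0.11 (SE), both with an adjusted p of 0.981. Itpr1 had 5 probe sets, of which 2 were nominally higher and 3 nominally lower, down to -0.16.

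Calcium-activated potassium channels, which channel calcium opens, had 8 probe sets, 0 calls and a median log2 change of 0.044, with Kcnn3 at 0.18 ± 0.11 and Kcnn1 at -0.14 ± 0.15 (SE). Calmodulin kinases, calcineurin and activity genes downstream of L-type channels had 38 probe sets of 15 genes. Of these probe sets, 15 were nominally higher and 23 nominally lower, with 0 calls and a median of -0.037. An unadjusted limma p below 0.05 was found for 6 of the 38, against 3.92% of all probe sets. All LSD values lay above all saline values in 4 and below in 3, against 6.58% and 3.79% of all probe sets. The list was chosen with earlier results of these data known. The calcineurin regulatory subunit gene Ppp3r1 differed by 0.33 ± 0.092, with an adjusted limma p of 0.874, and Camk2a, a postsynaptic calmodulin kinase, by -0.45 ± 0.14 (SE, adjusted p = 0.981). In neither of these did the groups overlap. The other probe set of Ppp3r1 was at 0.25 and that of Camk2a at -0.19.

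**Figure D5:**
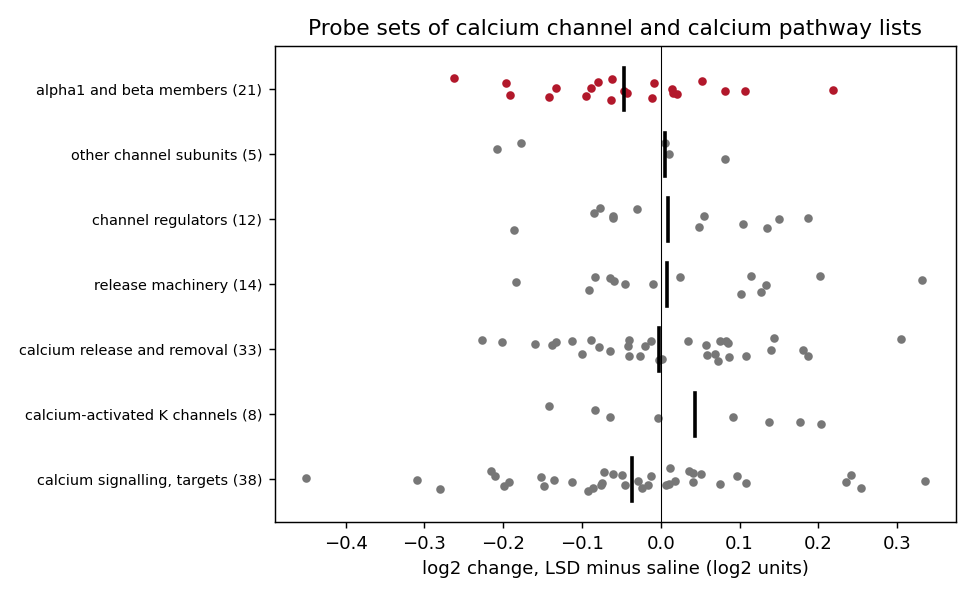
Log2 change, LSD minus saline (horizontal axis, log2 units), of the probe sets of the calcium channel members (red) and of 6 lists of related genes (grey), with the number of probe sets in brackets and a black bar at each median (points are spread vertically for legibility). The medians lie between -0.047 and 0.044, and no point passed the adjusted threshold.

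The genes whose profile over the 6 arrays lay closest to the leading members were found by the root mean square difference of deviations from each probe set's own mean, among 7005 probe sets with another symbol for Cacnb3 and 7004 for Cacnb2. For Cacnb3 they were Gpam (0.027 log2 units), Vav1 (0.031) and Lepr (0.032), where Cacnb3 itself deviated by 0.11. For Cacnb2 rc_AA891260_at they were Akr1b1 (0.030), the calcium pump gene Atp2b1 (0.034) and Nolc1 (0.039), where Cacnb2 deviated by 0.14. None of these 6 probe sets passed in limma.

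Markers of neighbouring tissue in the same comparison are given beside Cacnb3 and Cacnb2. Striatal markers were nominally lower in 12 of 14 probe sets, with 0 calls, a median log2 change of -0.16 and summed linear RMA values of 1281 to 1418 on LSD arrays and 1396 to 1454 on saline arrays. In 6 of the 14 all LSD values lay below all saline values, against 3.79% of all probe sets. The striatal dopamine receptor gene Drd1 was dim at its brightest probe set, at 4.50 in LSD and 4.64 in saline arrays. Its dimmer probe sets had log2 changes of -0.30 (S46131mRNA_s_at, no overlap) and -0.19 (M35077_s_at, groups overlapping). Penk, the proenkephalin gene, averaged 6.03 in LSD and 6.50 in saline arrays. Choroid plexus markers summed to 3080 to 3097 on LSD arrays and 3797 to 3964 on saline arrays over 14 probe sets, with Ttr, the transthyretin gene, at 9.93 log2 units in LSD and 10.42 in saline arrays. Of these 14, 6 were nominally higher and 8 nominally lower, with 0 calls and a median log2 change of -0.065. Nominally higher were 5 of the 6 probe sets of Igf2, while both of Enpp2 were nominally lower (-0.39 and -0.41). The sum is of linear values, so bright probe sets such as those of Ttr weigh most in it. Excitatory neuron markers had 3 of 6 probe sets nominally higher and inhibitory neuron markers 4 of 10, with 0 calls. For astrocyte markers the count was 10 of 17, for oligodendrocyte markers 7 of 13, for microglia markers 6 of 14 and for vessel markers 5 of 16, also with 0 calls. An unadjusted limma p below 0.05 was found for 5 of 17 astrocyte probe sets, against 3.92% of all. It was found for 4 of 14 striatal, 5 of 14 choroid plexus, 1 of 6 excitatory and 1 of 13 oligodendrocyte probe sets. No inhibitory neuron, microglia or vessel probe set reached it. All LSD values lay above all saline values in 4 astrocyte probe sets and below in 1, against 6.58% and 3.79% of all probe sets. For choroid plexus markers these counts were 1 and 3. The part of tissue makeup, of the beta-actin difference and of arrays LSD 1 and Saline 1 in the Cacnb3 and Cacnb2 values was not tested, beyond the values without each array given here. Without LSD 1, the array lowest for Cacnb3, its log2 change was -0.15.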

How the data were processed

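RNA from rat medial prefrontal cortex was labelled with biotin and hybridised to Affymetrix rat genome U34 arrays (set A), 3 for LSD and 3 for saline. The deposited log2 values were made by the authors with RMA as the affy package runs it (version not given in the sources used here), which corrects background, applies quantile normalisation and summarises probes. Quantile normalisation hides a change shared by most transcripts. Arrays have no read depth and their number limits the precision.

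Of 8799 probe sets, 59 controls were left out and 8740 tested. The platform annotation gave 7006 of them 1 symbol, 308 several and 1426 none. All 10 member symbols matched RefSeq genes (GRCr8 table, names only) unchanged. A limma model (version 3.58.1, R 4.3.3) without covariates compared LSD minus saline, two-sided, with moderated variances. Benjamini-Hochberg adjustment ran over all 8740 probe sets. The rank sum test of the study's methods cannot go below 0.1 with 3 against 3. Single values were compared by exact permutation of the 6 labels. On simulated data with 200 of 8740 probe sets changed, the fit recovered 58.6% of 1.5-fold and 85.8% of 2-fold changes. The false share was 5.49%. Simulated arrays had independent normal noise, and none stood apart as LSD 1 and Saline 1 did. The real arrays gave 6 calls, the smallest at 0.67 log2 units, where a 1.5-fold change is 0.58. The largest unadjusted limma p among these calls was 2.3e-05. With 200 changed probe sets, as simulated, the adjusted threshold is easier to reach. Recovery in the real arrays may therefore be lower, and 0 calls alone do not exclude a 1.5-fold change.

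The members and gene lists were chosen with earlier results of these data known. Described are all member probe sets, the lowest-p probe set per direction of each pathway list, and the 3 closest profiles of the 2 members of lowest p. The replicate numbers were checked for pairing, and the alternatives were other scalings, a filter on dim probe sets, other variance models, array weights, a replicate block, gene-level summaries and leaving out each array. A planned comparison of subunit proteins was not run.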

Additional observations from a re-analysis of the deposited data

How the results depend on the processing

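No member probe set passed the adjusted threshold under any of the 15 alternatives, where the lowest adjusted p was 0.152 (Cacna1a AF051526_at, array weights). The count of members with an unadjusted limma p below 0.05 was 1 of 21 with all arrays, against 3.92% of all probe sets. It was 2 of 21 with each array centred on its median (4.04% over all) and with an intensity trend and robust prior (4.83%). Among probe sets above the median level it was 2 of 13 (7.55%), and with the brightest probe set per gene 2 of 10 (3.63%). It was 4 of 21 with array weights, where 17% of all probe sets reached that p, and 0 with the replicate block (3%). Leaving out 1 array gave 0 to 2 of 21, against 2.94% to 9.22% of all probe sets. Over all probe sets the 6 calls became 16 above the median level, 20 with the trend and robust prior, 42 with array weights, 0 with the replicate block, 1 with the brightest probe set per gene, and 0 to 3 without 1 array. The median member change, -0.047 with all arrays, moved by less than the spread between arrays (0.070 log2 units) in the alternatives run. That spread is larger than the median change itself and includes LSD 1, so this comparison does not show a stable sign. The median ran from -0.076 without LSD 3 to 0.0025 without LSD 1 and was 0.015 with the brightest probe set per gene. Deviations of same-numbered arrays correlated at -0.018, -0.23 and 0.17, and those of other-numbered arrays at -0.15 to 0.20. With 3 arrays per group, these values cannot tell whether same-numbered arrays were processed together.

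The sign of 9 member probe sets held in every alternative run, and 12 changed sign in at least 1, all with estimates smaller than their standard errors. With array weights the log2 change was -0.045 for Cacna1a M99222_s_at, 0.041 for Cacna1d U49126_s_at, 0.038 for U31772_s_at and 0.069 for M57682_at, -0.044 for Cacna1g and 0.062 for Cacnb1. Cyclic loess gave -0.00046 for Cacna1d D38101_s_at. Without 1 array the log2 changes ran from -0.076 to 0.23 for Cacna1a rc_AI229031_s_at, from -0.056 to 0.084 for M99222_s_at, from -0.12 to 0.062 for Cacna1b M92905_s_at and from -0.22 to 0.023 for AF055477_at. For Cacna1d they ran from -0.075 to 0.11 (D38101_s_at), -0.15 to 0.18 (U49126_s_at), -0.18 to 0.051 (U31772_s_at), -0.23 to 0.0033 (M99221_s_at) and -0.15 to 0.048 (M57682_at). For Cacna1g the range was -0.019 to 0.051, for Cacnb1 -0.060 to 0.064 and for Cacnb2 M80545_at -0.11 to 0.011. The cause was not tested. Averaging probe sets by gene gives no value for a single probe set.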
